A study of Mus musculus with 40 samples.

Results

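The mitochondrially encoded transcripts of mouse liver were described gene by gene. All 37 genes whose symbol begins with mt- were found in the count tables, and the 24 with at least 1 count per 1e6 counts (CPM) on average over the 40 libraries were kept as members. They were 10 of 13 mRNA genes, both rRNA genes and 12 of 22 tRNA genes, out of 57186 gene IDs in all. Of the genes nearest to that limit, mt-Ts2 stood just inside at 1.13 CPM, and mt-Nd4l and mt-Nd3 stood just outside at 0.828 and 0.724 CPM.

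The mitochondrial genome is a small circle that is transcribed from both of its strands into long precursors. The tRNAs lie between the rRNAs and mRNAs, and their excision releases the other transcripts. The mRNAs encode core subunits of complexes I, III, IV and V of the respiratory chain, and the remaining subunits are encoded in the nucleus. Most mitochondrial mRNAs carry short poly(A) tails, and in hepatocytes, which are rich in mitochondria, they are among the most abundant polyadenylated RNAs.

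Liver RNA was selected with poly-T beads, fragmented and sequenced for 8 groups of 5 libraries, all labelled C57BL/6NCrl. The groups were WT and KO mice of both sexes, fed chow throughout or switched at 11 to 13 weeks of age to a high fat diet (HFD) with 45 kcal% fat for 11 weeks. All mice were taken at 22 to 24 weeks, 2 to 4.5 h after lights on. KO refers to mice without functional NNT, an inner membrane transhydrogenase that forms NADPH, and the allele is not named in the labels. Library totals, in 1e6 counts (M), ran from 15.97 to 28.16 M around a median of 20.43 M. Nnt, the targeted gene, was at 0.673 to 2.06 CPM in WT and at 0.636 to 2.13 CPM in KO libraries, so its counts did not tell the genotypes apart and the KO labels could not be checked by it. The summed level of 7 hepatocyte markers ran from 62132 to 127163 CPM, whereas 5 pancreas markers reached at most 59.6 CPM and 5 muscle markers at most 23.8 CPM. In 20 of 40 libraries the treatment label gives another diet than the title, which was followed here. Nothing in the labels says that each library of a group came from a separate mouse, so the spread behind the p-values may be technical.

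Levels along the mitochondrial genome fell into separate ranges. Per kb of transcript, mt-Co1, the catalytic subunit of complex IV, stood at 18187 CPM, followed by the complex III subunit mt-Cytb at 10947 CPM. The complex I subunits mt-Nd2, mt-Nd1, mt-Nd5, mt-Nd6 and mt-Nd4 stood at 7457, 6379, 4341, 4094 and 3787 CPM per kb. The rRNAs mt-Rnr1 and mt-Rnr2, which form the small and large subunits of the mitochondrial ribosome, stood at 628 and 541 CPM per kb. In contrast, the complex IV subunits mt-Co2 and mt-Co3 and the complex V subunit mt-Atp6 stood at 2.64, 2.95 and 3.81 CPM per kb. The other mRNA genes in that stretch, mt-Atp8, mt-Nd3 and mt-Nd4l, were equally low at 2.31, 2.08 and 2.79 CPM per kb. In each library the mt-Co2 gene held 14 to 65 counts, against 307749 to 901903 for mt-Co1. mRNA genes held on average 97.5% of the mitochondrial counts of a library, rRNA genes 2.05% and tRNA genes 0.399%.

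The mRNA genes near the floor, apart from mt-Atp8, were those with near-identical copies over almost their whole length annotated in the nuclear genome. Every mitochondrial transcript was compared with the nuclear transcripts of GENCODE M21, and 7 gene models that stand in a row on the minus strand of chromosome 1 matched mt-Co1 to mt-Nd4 at 99.7% identity or more. Of all stretches of 100 bases in mt-Co2, mt-Atp6, mt-Co3, mt-Nd3 and mt-Nd4l, 99.5%, 99.5%, 99.9%, 97.6% and 98.5% occurred letter for letter in a nuclear transcript. These 5 genes spanned 2.08 to 3.81 CPM per kb. The share was 60.8% for mt-Nd4, whose first 876 bases are copied, 30.8% for mt-Co1 and 3.19% for mt-Nd2. It was 0% for mt-Nd1, mt-Nd5, mt-Nd6 and mt-Cytb, and also for mt-Atp8, which was low with no near-identical annotated copy. Only annotated nuclear transcripts were compared, not the genome between them. mt-Atp8 starts between mt-Co2 and mt-Atp6, whose copies stand at chr1:24614885-24615565 and chr1:24613974-24614651. A copy of mt-Atp8 in the stretch between these 2 models could not have been seen. The 5 mRNA genes other than mt-Atp8 with less than 5% of such stretches spanned 4094 to 10947 CPM per kb. How reads with more than 1 place in the genome were counted is not given in the sources used here, so the levels of mt-Co1, mt-Nd4 and the genes between them cannot be read as transcript abundance. For the low genes, comparisons between libraries also rest on few counts.

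**Figure D1:**
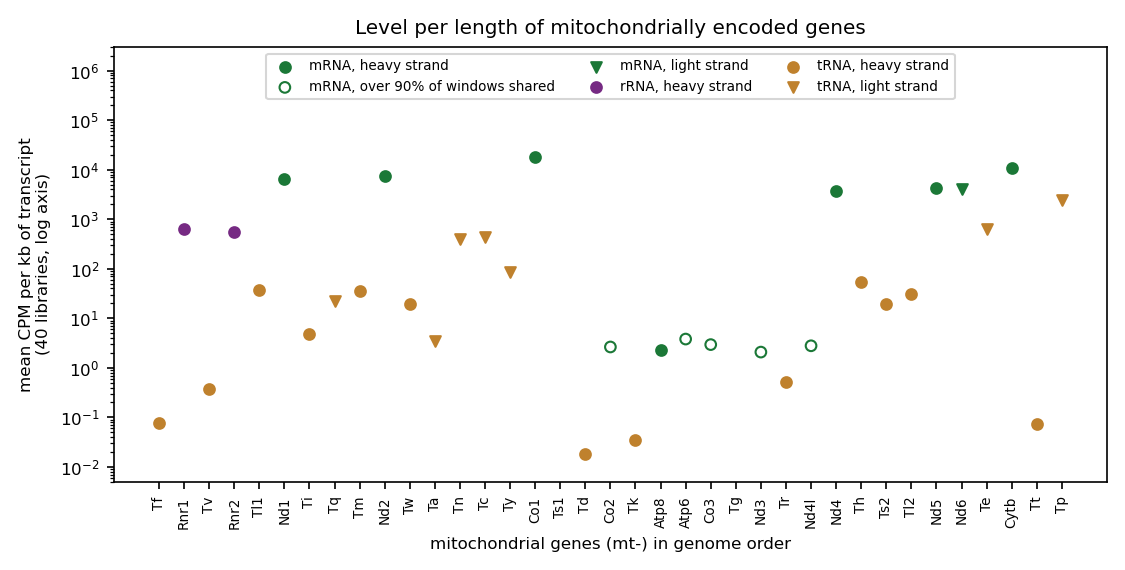
Mean level of each mitochondrial gene over the 40 libraries, in CPM per kb of transcript on a log axis, in genome order, with genes under 0.01 CPM per kb left out. Open circles mark the 5 mRNA genes with over 90% of 100-base stretches found in nuclear transcripts, which lie between 2.08 and 3.81 CPM per kb, while mt-Co1 lies at 18187.

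The sequences show how little tells a mitochondrial read from its nuclear copy. They are printed 5′ to 3′ on the transcript's strand, from GENCODE M21 (build GRCm38, not that of the counts). The first 60 bases of mt-Co2 (chrM:7013-7696, plus strand) and of the nuclear model Gm28661 (chr1:24614885-24615565, minus strand) are the same, as are all 681 aligned bases:
mt-Co2: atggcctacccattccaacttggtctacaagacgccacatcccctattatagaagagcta
Gm28661: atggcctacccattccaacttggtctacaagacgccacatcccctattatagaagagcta

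mt-Nd3 differs from Gm28438 by T3C alone over 345 aligned bases, and mt-Co1 differs from Gm29216 by A1066T alone over 483. The mitochondrial base comes first, positions are counted from 1 at the 5′ end of the mitochondrial transcript, and capitals mark the difference:
mt-Nd3: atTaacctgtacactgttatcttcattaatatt
Gm28438: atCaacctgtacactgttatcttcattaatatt
mt-Co1: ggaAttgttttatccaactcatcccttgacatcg
Gm29216: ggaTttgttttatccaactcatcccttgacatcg

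The nuclear models themselves held few counts. Gm28438, the copy of mt-Nd3, had the highest mean at 21.3 CPM, then Gm28437, the copy of mt-Co3, at 11.3 CPM. Gm10925 (mt-Atp6) stood at 4.42 CPM, Gm10222 (mt-Nd4l) at 4.11 CPM, Gm28661 (mt-Co2) at 2.11 CPM, Gm28439 (mt-Nd4) at 2.1 CPM and Gm29216 (mt-Co1) at 1.43 CPM. Whether these counts came from nuclear or mitochondrial RNA was not tested.

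The 5 highest tRNA genes were all encoded on the light strand. The mt-Tp gene for tRNA-Pro stood at 164 CPM, mt-Te for tRNA-Glu at 43.6, mt-Tn for tRNA-Asn at 28.7, mt-Tc for tRNA-Cys at 28.7 and mt-Ty for tRNA-Tyr at 5.71 CPM. The 8 light-strand tRNA genes together held 95.1% of the tRNA CPM, against 14 on the heavy strand, but mt-Tq of the light strand, at 1.60 CPM, lay below mt-Tl1 of the heavy strand at 2.84 CPM. Of these, mt-Tp, mt-Te, mt-Tn and mt-Tc are shown because later results turn on them. Capitals mark the last 3 encoded bases, after which the CCA end is added in a mature tRNA:
mt-Tp: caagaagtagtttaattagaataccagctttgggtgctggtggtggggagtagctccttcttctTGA
mt-Te: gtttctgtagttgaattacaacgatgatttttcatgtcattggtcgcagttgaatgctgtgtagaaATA
mt-Tn: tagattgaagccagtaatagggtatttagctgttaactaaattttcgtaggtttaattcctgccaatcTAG
mt-Tc: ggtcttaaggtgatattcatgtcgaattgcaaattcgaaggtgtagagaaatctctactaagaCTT

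mt-Nd6 is the only mRNA gene on the light strand. Its transcript is 28.1% G and 5.97% C, whereas G makes up 5.88% to 16.1% of the 12 heavy-strand mRNAs. Whether strand was used in the counting is not given in the sources used here. If it was not, a count on a light-strand gene cannot be told apart from a read of precursor RNA of the other strand. Poly(A) selection and fragmentation also recover tRNA and rRNA poorly, so their counts cannot be read as the amount of mature tRNA or rRNA.

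KO male chow replicate 3 stood apart from the other 39 libraries. Mitochondrial genes held 4.02% of its counts, against 5.94% to 8.76% elsewhere and a median of 7.03% over all 40 libraries. Of the 24 members, 19 lay below all other 4 libraries of its group, 4 lay within them and 1 above, and 12 were the lowest of all 40 libraries. Of 1456 nuclear genes that averaged 100 CPM or more, 29.1% lay below and 32.3% above the other 4 libraries. Many members, such as mt-Th and mt-Co2, are less abundant than these genes. The share of all genes that were lowest of the 40 libraries here was not counted, so the 12 have no such comparison. Comparisons that include its group are also given without it where they turned on this library. The edgeR model shares its estimate of the spread over all libraries, so this library also enters the standard errors of the other comparisons. Those were refitted without it only in the setting that kept just the groups compared.

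Its members were not low to an equal degree. mt-Nd6 stood at 920 CPM, or 39.5% of the mean of the other 4 libraries. mt-Nd2 stood at 41.1%, mt-Nd1 at 46.3%, mt-Nd5 at 46.8%, mt-Cytb at 48.3%, mt-Nd4 at 51.3% and mt-Co1 at 59.2% of that mean. The tRNA genes mt-Th and mt-Tp were lower still, at 15% and 20.9%, while mt-Rnr1 was at 77.4%, mt-Ty at 102% and mt-Rnr2 at 112%. mt-Tp was also low in KO female chow replicate 3, whose mitochondrial share was 6.65%. It stood there at 75.1 CPM, against 140 to 170 CPM in the rest of that group. The abundant mRNAs thus all lay low in KO male chow replicate 3, while the large rRNA did not. Blood markers summed to 285 CPM in this library and to 190 to 238 CPM in the other 4, cholangiocyte markers to 17.7 against 10.6 to 11.9 CPM, endothelial markers to 69.5 against 75.6 to 87.1 CPM and muscle markers to 3.47 against 0.446 to 1.47 CPM. Stellate cell markers summed to 182 against 201 to 219 CPM, although Col3a1 (26.7 against 18.1 to 21.8 CPM) and Col1a1 (6.77 against 3.44 to 6.22 CPM) lay above the other 4. Of the nuclear-retained RNAs, Malat1 (178 CPM) and Kcnq1ot1 (2.06 CPM) were the lowest of all 40 libraries and Neat1 the highest at 846 CPM. The sum of the hepatocyte markers, at 82856 CPM, lay within the range of the other 4, as did Alb, Pck1 and Serpina1e. Cps1 (5860 against 4910 to 5452 CPM), Apoa1 (5888 against 4109 to 4778 CPM) and Ttr (5019 against 4025 to 4462 CPM) lay above them. Tat lay below them (1344 against 1461 to 2555 CPM). The part of these differences in the low mitochondrial share was not tested.

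**Figure D2:**
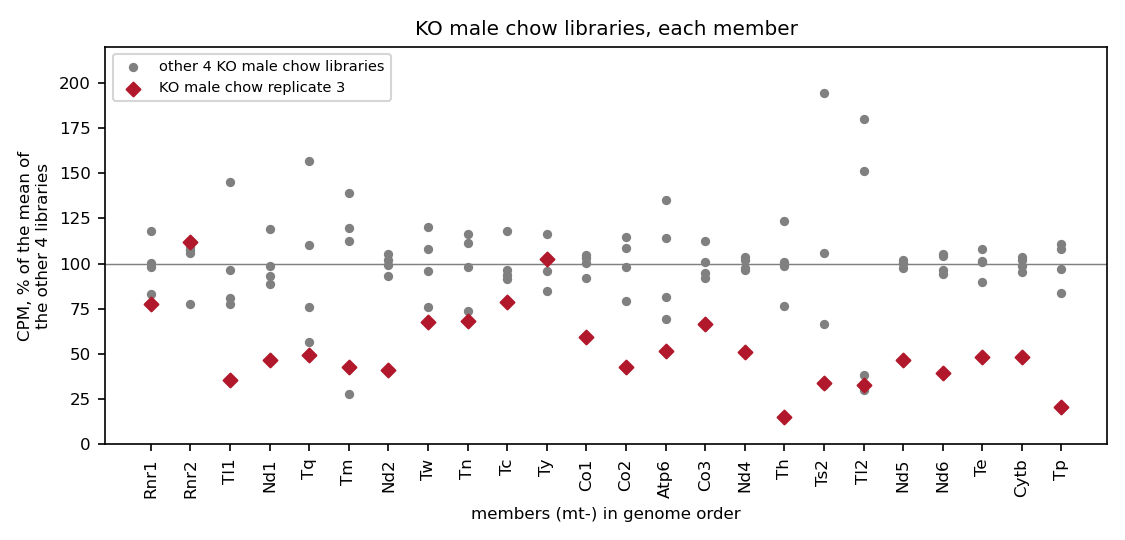
CPM of each member in the 5 KO male chow libraries, as a percentage of the mean of replicates 1, 2, 4 and 5, in genome order. Replicate 3 (diamonds) lies at 39.5% to 59.2% for the 7 abundant mRNAs and at 112% for mt-Rnr2.

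The mitochondrial share of counts was highest in WT males on chow and lowest in KO females on chow. In WT males on chow the 5 libraries held 8.24%, 7.96%, 8.76%, 8.09% and 8.65% of their counts on mitochondrial genes, and in WT females on chow 6.87%, 7.35%, 6.31%, 6.73% and 7.0%. Every male library lay above every female library, with means of 8.34% ± 0.350 and 6.85% ± 0.382 (SD, n = 5 each). The difference was 1.49 percentage points, with an exact permutation p of 0.00794, two-sided, which is the smallest that 5 against 5 libraries can give, and 0.0159 adjusted over 12 comparisons. On HFD, WT males stood at 7.48% ± 0.316 and WT females at 6.64% ± 0.401, also without overlap (0.845 points, same p). In KO mice on HFD the sexes overlapped, at 7.37% ± 0.305 and 7.04% ± 0.115 (exact permutation p = 0.0873). In KO mice on chow they stood at 6.99% ± 1.67 in males and 6.48% ± 0.187 in females (exact permutation p = 0.611), and without KO male chow replicate 3 at 7.73% ± 0.275 in 4 males, 1.24 points above the females (adjusted exact permutation p = 0.0272). In bulk tissue, fewer mitochondria-rich cells and less mitochondrial RNA per cell cannot be told apart.

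Between diets and between genotypes the share differed in opposite directions in different groups, and the difference between these effects was not tested. In WT males the HFD minus chow difference was -0.861 points, without overlap (adjusted exact permutation p = 0.0159). In KO females it was 0.554 points, also without overlap (adjusted exact permutation p = 0.0159). In WT females it was -0.216 points, within the spread (exact permutation p = 0.413). In KO males the difference was +0.384 points with all libraries and -0.357 points without KO male chow replicate 3, and neither was larger than the spread (adjusted exact permutation p = 0.952 and 0.133).

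Between genotypes, the KO minus WT difference in males on chow was -1.36 points, without overlap (adjusted exact permutation p = 0.0159). Without KO male chow replicate 3 it was -0.615 points, again without overlap, with 7.32% to 7.93% in KO and 7.96% to 8.76% in WT (adjusted exact permutation p = 0.0272). In females on HFD, KO libraries held 7.02%, 6.99%, 7.24%, 6.96% and 6.98% and WT libraries 6.65%, 5.94%, 6.83%, 6.92% and 6.84%, so that KO was 0.401 points higher without overlap (adjusted exact permutation p = 0.0159). Without WT female HFD replicate 2 the difference was 0.227 points (adjusted exact permutation p = 0.0317). The highest WT library and the lowest KO library were 6.92% and 6.96%. On the log2 scale of the TMM-scaled CPM sum, this difference was 0.04 and the diet difference in KO females 0.05, and neither then passed (adjusted exact permutation p = 0.317 and 0.262). In females on chow the KO minus WT difference was -0.369 points (exact permutation p = 0.0873), and in males on HFD -0.110 points (exact permutation p = 0.579).

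**Figure D3:**
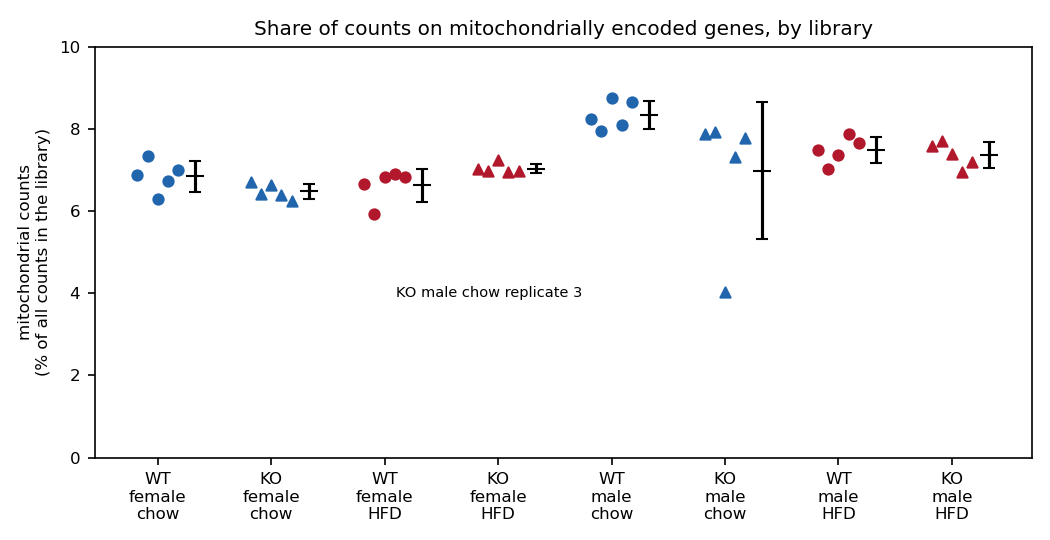
Percentage of all counts on mitochondrially encoded genes in each of the 40 libraries, by group, with the mean and SD beside the points (blue chow, red HFD, circles WT, triangles KO). WT males on chow sit between 7.96% and 8.76%, and KO male chow replicate 3 at 4.02%.

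The sex difference was carried by most of the abundant members. Averaged over the 4 combinations of genotype and diet, 17 of 24 members were higher in males and 0 lower (edgeR quasi-likelihood test, Benjamini-Hochberg adjusted p under 0.05), while 25.1% of all 15627 genes tested were called higher in males and 25.2% lower. The median log2 difference, male minus female, was 0.27 over the members and 0.00 over all genes. The 7 members without a call were the tRNA genes mt-Tw, mt-Th, mt-Ts2, mt-Tl2 and mt-Tp and the low mRNA genes mt-Atp6 and mt-Co3. Without KO male chow replicate 3, 18 members were higher, against 49.4% of all genes called in either direction, mt-Tp (0.19 ± 0.06, adjusted p = 0.00799) being the one added.

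In WT mice on chow, 12 of 24 members were higher in males, against 12% of all genes, and 0 were lower, against 11.6%. mt-Co1 stood at 27849, 31966, 24639, 26053 and 30003 CPM in the 5 females and at 32711, 33855, 38213, 35513 and 37113 CPM in the 5 males. mt-Nd6, the light-strand complex I subunit, stood at 1706, 1818, 1766, 1810 and 1758 CPM in females and at 2850, 2572, 2896, 2501 and 2623 CPM in males. mt-Tc stood at 18.6, 23.3, 16.9, 22.6 and 19 CPM in females and at 39.2, 35.5, 38.8, 36 and 35.8 CPM in males. For each of these the lowest male lay above the highest female, as for 12 of 24 members and 6.96% of all genes. The log2 differences, with standard errors, were 0.34 ± 0.10 for mt-Co1 (adjusted p = 0.010), 0.60 ± 0.14 for mt-Nd6 (adjusted p = 0.00124) and 0.89 ± 0.12 for mt-Tc (adjusted p = 7.29e-07).

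The other members called in WT mice on chow came from every class. Of the complex I mRNAs, mt-Nd2, mt-Nd4 and mt-Nd5 were higher in males by 0.49, 0.40 and 0.42 on the log2 scale, and mt-Nd1 (0.29 ± 0.13, adjusted p = 0.0940) was not called. mt-Cytb was higher by 0.32 and the rRNAs mt-Rnr1 and mt-Rnr2 by 0.47 and 0.57. The tRNA genes called besides mt-Tc were mt-Tn (0.60), mt-Te (0.72) and mt-Ty (0.80), all of the light strand, while mt-Tp, the most abundant tRNA gene, was at 0.23 ± 0.21 (adjusted p = 0.472). Although not called, mt-Tp (154 to 183 CPM in females, 187 to 211 CPM in males) did not overlap between the sexes. Nor did mt-Nd1 (5929 to 6937 and 7021 to 8653 CPM). The called mt-Rnr1 and mt-Te did overlap, so the members called and those without overlap were not the same.

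In KO mice on chow, 6 members were higher in males, against 11.7% of all genes, and 0 lower, against 11.5%. They were mt-Rnr2, mt-Nd2, mt-Tq, mt-Tc, mt-Ty and mt-Te. Of these, mt-Nd2 (0.34 on the log2 scale, adjusted p = 0.0498) was called in only 1 of 10 fits that each left out 1 library and in 2 of 7 other settings, which did not include the replicate block, and mt-Tq in 7 of 10 such fits. Without KO male chow replicate 3 the count was 15 against 19.6% of all genes called in either direction. mt-Nd6 stood at 1546 to 1766 CPM in the 5 KO females on chow, at 920 CPM in KO male chow replicate 3, and at 2191 to 2453 CPM in the other 4 males. Its log2 difference was 0.32 ± 0.14 with that library (adjusted p = 0.0887) and 0.51 ± 0.08 without it (adjusted p = 2.17e-05). mt-Co1 differed by 0.12 ± 0.10 (adjusted p = 0.403) and by 0.24 ± 0.07 (adjusted p = 0.0161), respectively.

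On HFD fewer members passed. In WT mice 5 were higher in males, against 11.2% of all genes, and 0 lower, against 10.5%. They were mt-Rnr2, mt-Tn, mt-Tc, mt-Ty and mt-Nd5. mt-Tc stood at 20.6 to 30.1 CPM in females and at 31.2 to 45.0 CPM in males, without overlap (0.53 ± 0.12, adjusted p = 0.00122). In this comparison 5 of 24 members were higher in males without overlap, against 7.42% of all genes. The count of called members fell to 2 without WT female HFD replicate 4 and to 3 without WT male HFD replicate 4 or replicate 5. In KO mice on HFD, 0 members passed edgeR's test or DESeq2's, against 19.5% of all genes in edgeR, and 3 had an unadjusted p under 0.05 in each, beside 31.4% of all genes in edgeR. The lowest adjusted p there was 0.0556, for mt-Tc (0.32 ± 0.12), with 23 to 29.5 CPM in females and 27.1 to 44.5 CPM in males. The difference of the sex effects between diets was tested directly, and 0 members passed, against 0.544% of all genes (lowest adjusted p = 0.218), so the smaller counts on HFD were not shown to be a smaller effect. At an unadjusted p under 0.05 there were 4 members in edgeR and in DESeq2, beside 10.4% of all genes in edgeR. With KO male chow replicate 3 left out, 0 members were called, against 0.36% of all genes (lowest adjusted p = 0.125).

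**Figure D4:**
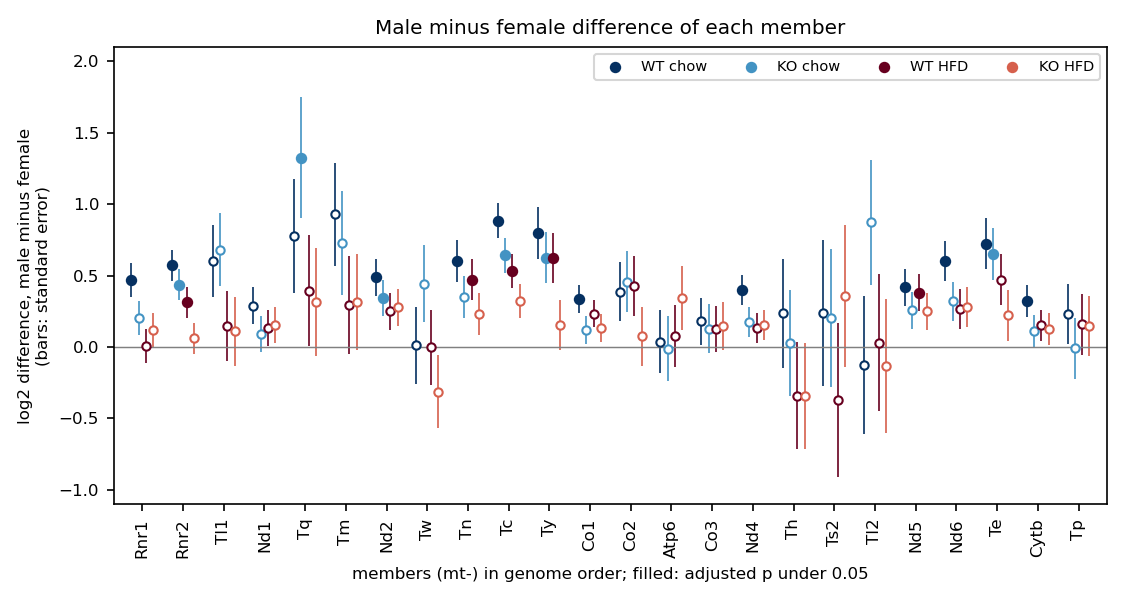
Log2 difference, male minus female, of each member in the 4 combinations of genotype and diet, with standard errors, and filled points for an adjusted p under 0.05. WT mice on chow have 12 filled points, all above 0, and KO mice on HFD have 0.

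Cell type markers also differed by sex. Group means of the summed Kupffer cell and macrophage markers ran from 202 to 254 CPM in females and from 109 to 141 CPM in males, and the 40 libraries spanned 69.6 to 299 CPM. Endothelial markers ran from 101 to 137 CPM in females and from 72.6 to 101 CPM in males, and lymphocyte markers from 22.3 to 28.3 and from 11.5 to 15.5 CPM. Blood markers, by contrast, had group means of 115 to 178 CPM in females and 213 to 239 CPM in males. The blood sum joins haemoglobin genes with Alas2. In KO males on chow without replicate 3, Alas2 stood at 112 to 133 CPM, against a mean of 62.4 CPM over 40 libraries. There Hbb-bs (38 to 64.7 CPM) and Hba-a1 (17.5 to 31 CPM) lay below their means of 71.1 and 34 CPM. So did Hbb-bt and Hba-a2. In replicate 3, Hbb-bs, Hba-a1 and Hbb-bt lay above their means. Whether male livers held more blood was not tested. Hepatocyte markers had group means of 85877 to 101238 CPM in females and 71589 to 82770 CPM in males. Alb, with a mean of 69606 CPM over 40 libraries, made up most of this sum, and Serpina1e ran from 4.41 to 8547 CPM. In all KO male chow libraries Alb lay below its mean, and Cps1, Apoa1 and Serpina1e lay above theirs. Pck1, Tat and Ttr lay on both sides. The sex difference of these markers is not given gene by gene. All 5 macrophage, 4 endothelial, 5 lymphocyte, 5 blood and 7 hepatocyte markers were found, and 0 of them was at 0 in all libraries. The part of these differences in the sex difference of the members was not tested.

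Between diets the called members did not all go in the same direction. Averaged over the 4 combinations of genotype and sex, 4 members were higher on HFD, against 12.7% of all genes, and 3 were lower, against 12%. The higher ones were tRNA genes: mt-Te (0.52 ± 0.09, adjusted p = 2.89e-05), mt-Tc (0.22 ± 0.06, adjusted p = 0.00651), mt-Tl1 (0.36 ± 0.12, adjusted p = 0.0306) and mt-Tm (0.48 ± 0.18, adjusted p = 0.0398). The lower ones were mt-Rnr1 (-0.35 ± 0.06, adjusted p = 1.72e-05), mt-Co1 (-0.17 ± 0.05, adjusted p = 0.00967) and mt-Tl2 (-0.63 ± 0.23, adjusted p = 0.0446). Without KO male chow replicate 3, mt-Nd1 (-0.15 ± 0.04, adjusted p = 0.00675) and mt-Nd2 (-0.16 ± 0.03, adjusted p = 0.000947) were lower as well, and mt-Tm (adjusted p = 0.0615) was no longer called. With each of the 40 libraries left out in turn, mt-Tl2 was called in 14 fits and mt-Tm in 21, and mt-Tl2 was not called with the replicate block or without a low-count filter.

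Within a sex and genotype, mt-Rnr1, the small rRNA, was called between diets in WT males alone. It stood at 897, 980, 849, 718 and 862 CPM on chow and at 513, 479, 475, 546 and 553 CPM on HFD, without overlap (-0.75 ± 0.12, adjusted p = 4.75e-05). Without overlap, 5 of 24 members were lower on HFD in WT males, against 3.94% of all genes. In WT males 4 members were called lower, against 5.87% of all genes, and 0 higher, against 5.72%. The others were mt-Tn (-0.47 ± 0.14, adjusted p = 0.0285), mt-Co1 (-0.30 ± 0.10, adjusted p = 0.0362) and mt-Nd2 (-0.39 ± 0.13, adjusted p = 0.0450). mt-Rnr1 was called whichever library was left out, and the count of called members ran from 1 to 6. It was 1 without WT male chow replicate 3 or 5 or WT male HFD replicate 1 or 2, and 2 without WT male chow replicate 1 or 2 or WT male HFD replicate 3 or 5. In the other sex and genotype groups mt-Rnr1 differed by -0.28 ± 0.12 in WT females (adjusted p = 0.235), -0.15 ± 0.12 in KO females (adjusted p = 0.592) and -0.24 ± 0.12 in KO males (adjusted p = 0.288).

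The large rRNA, mt-Rnr2, was not called between diets in any group. It differed by -0.06 ± 0.05 on average over the 4 combinations (adjusted p = 0.465). The log2 ratio of mt-Rnr2 to mt-Rnr1 was 0.28 ± 0.17 on chow and 0.55 ± 0.16 on HFD in WT females, and 0.30 ± 0.10 and 0.66 ± 0.13 in KO females (SD, n = 5 each). It was 0.38 ± 0.10 and 0.85 ± 0.10 in WT males and 0.53 ± 0.27 and 0.61 ± 0.17 in KO males (SD, n = 5 each). KO male chow replicate 3 stood at 0.96, and the other 4 libraries of that group at 0.42 ± 0.14 (SD, n = 4; 0.29 to 0.55). The chow and HFD libraries of WT males did not overlap in this ratio (0.24 to 0.49 against 0.68 to 0.94), nor did those of KO females (0.20 to 0.45 against 0.48 to 0.80). No test was made on the ratio, which was chosen with the values of its parts known.

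Within a sex and genotype, mt-Te was called between diets in KO females alone. It stood at 27.5, 34.5, 27, 26 and 20.3 CPM on chow and at 55.6, 43.4, 46.5, 52.4 and 49.9 CPM on HFD, without overlap (0.88 ± 0.18, adjusted p = 0.00182). Without overlap, 6 of 24 members were higher on HFD in KO females, against 2.99% of all genes. In KO females 2 members were called higher, against 2.4% of all genes, and 0 lower, against 2.54%. The other was mt-Tc, at 18.4 to 21.8 CPM on chow and 23 to 29.5 CPM on HFD (0.42 ± 0.12, adjusted p = 0.0327). The count was 1 without KO female chow replicate 3, 4 or 5 or KO female HFD replicate 1, 3 or 4, and mt-Te was called in each of these. mt-Te differed by 0.49 ± 0.18 in WT females (adjusted p = 0.147), 0.24 ± 0.18 in WT males (adjusted p = 0.418) and 0.45 ± 0.18 in KO males (adjusted p = 0.152), or 0.29 ± 0.17 there without KO male chow replicate 3 (adjusted p = 0.428). In WT males on chow, replicate 1 stood at 71.9 CPM and the other 4 libraries at 38.7 to 44.1 CPM.

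In WT females 0 members passed on HFD in edgeR or DESeq2, against 2.8% of all genes, and 6 had an unadjusted p under 0.05 in each, beside 15.1% of all genes in edgeR. Without WT female chow replicate 4, 1 member was called. In KO males 1 member was lower, against 2.12% of all genes, and 0 higher, against 2.32%. It was mt-Tl2, the gene of a leucine tRNA, at 1.79, 2.27, 1.95, 10.7 and 8.95 CPM on chow and at 1.09, 2.32, 1.74, 1.22 and 1.92 CPM on HFD (-1.62 ± 0.45, adjusted p = 0.0299). The groups overlapped, and KO male chow replicates 4 and 5 alone stood above the HFD libraries. Without KO male chow replicate 3 the difference was -1.83 ± 0.46 (adjusted p = 0.0178). The count was 0 without either of these, and also without KO male HFD replicate 1, 3, 4 or 5.

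**Figure D5:**
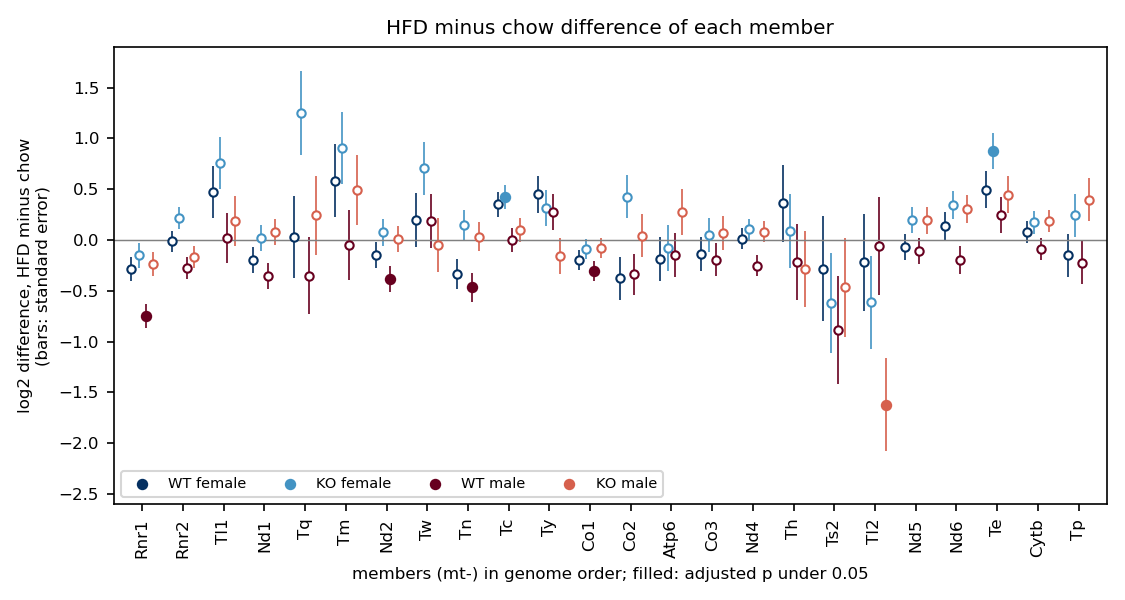
Log2 difference, HFD minus chow, of each member in the 4 combinations of genotype and sex, with standard errors, and filled points for an adjusted p under 0.05. mt-Rnr1 in WT males lies at -0.75 and mt-Te in KO females at 0.88, and WT females have 0 filled points.

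Between genotypes 0 members passed edgeR's test in any group. Between KO and WT, 0% of all genes were called in either sex on chow and in males on HFD, and 0.0064% in females on HFD. On average over the 4 combinations of sex and diet it was again 0%. DESeq2 also called 0 members in each of these comparisons. In edgeR, 3 members had an unadjusted p under 0.05 in females fed chow, 14 in males fed chow, 0 in either sex fed HFD and 8 in the average. Of all genes, 4.47% and 8.47% had such a p in females and males fed chow, 6.34% and 6.96% in females and males fed HFD, and 6.68% in the average. In DESeq2 there were 3 in females fed chow, 15 in males fed chow, 0 in females and 1 in males fed HFD, and 8 in the average. Averaged over the 4 combinations, mt-Co1 differed by -0.09 ± 0.05, with a 95% interval from -0.19 to 0.01, and mt-Cytb by -0.10 ± 0.06, with an interval from -0.21 to 0.01. mt-Nd1 differed by -0.18 ± 0.06 (interval -0.31 to -0.05, adjusted p = 0.614). These differences were -0.06 ± 0.04, -0.06 ± 0.03 and -0.13 ± 0.04 without KO male chow replicate 3 (adjusted p = 0.719, 0.700 and 0.467).

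In males on chow, the 14 members with an unadjusted p under 0.05 became 9 without KO male chow replicate 3. Of all genes 8.47% had such a p in the fit of all libraries, and the share without that library was not counted. With all libraries, 3 of 24 members were lower in KO without overlap, against 0.589% of all genes. mt-Cytb stood at 13868, 13793, 15982, 14089 and 14688 CPM in WT and at 12957, 13656, 6349, 12544 and 13411 CPM in KO males, without overlap. Its log2 difference was -0.30 ± 0.11 (adjusted p = 0.442) and, without that library, -0.14 ± 0.07 (adjusted p = 0.584). mt-Nd6 and mt-Tp did not overlap between these groups either, with differences of -0.39 ± 0.14 (adjusted p = 0.423) and -0.58 ± 0.21 (adjusted p = 0.436). Without that library they were -0.20 ± 0.08 (adjusted p = 0.503) and -0.33 ± 0.13 (adjusted p = 0.479). The median log2 difference of the members was -0.29 with it and -0.15 without it. The difference of the genotype effects between diets and between sexes was called for 0 members and 0% of all genes by edgeR, and for 0 members by DESeq2, with 11 and 0 members at an unadjusted p under 0.05 in either tool, beside 6.99% and 7.97% of all genes in edgeR. With KO male chow replicate 3 left out, edgeR again called 0 members and 0% of all genes for both (lowest adjusted p of a member 0.444 and 0.682).

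Nuclear genes that serve the mitochondrial genome were counted by fixed lists, in all 40 libraries. Of 32 tested genes of mitochondrial RNA processing, stability and decay, 16 were higher in males and 1 lower on average over the 4 combinations, beside 25.1% of all genes higher and 25.2% lower. The 4 with the smallest adjusted p were Hsd17b10 (0.80 ± 0.05, adjusted p = 3.60e-16), a subunit of the RNase P that cuts the 5′ ends of mitochondrial tRNAs, Grsf1 (0.35 ± 0.03, adjusted p = 1.29e-13), an RNA granule protein, the oligoribonuclease Rexo2 (0.54 ± 0.05, adjusted p = 1.66e-12) and the RNA methyltransferase Nsun2 (0.31 ± 0.03, adjusted p = 6.77e-11). Lrpprc, which stabilises mitochondrial mRNAs, was higher by 0.31 ± 0.03 (adjusted p = 1.60e-10). The median log2 difference of this list was 0.14, against 0.00 over all genes.

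Of 27 tested genes of mitochondrial translation, 15 were higher in males and 0 lower, among them the initiation factor Mtif2 (0.34 ± 0.03, adjusted p = 4.18e-11) and the asparaginyl-tRNA synthetase Nars2 (0.53 ± 0.06, adjusted p = 3.12e-10). Of 11 genes of mtDNA transcription, 2 were higher and 1 lower. Polrmt, the mitochondrial RNA polymerase, was higher by 0.18 ± 0.04 (adjusted p = 0.000524), and Tfam, which packages mtDNA and starts its transcription, was lower by 0.09 (-0.09 ± 0.03, adjusted p = 0.0162). Of 17 genes of mtDNA replication and maintenance 4 were higher and 4 lower, near the shares of all genes (25.1% higher and 25.2% lower). The same shares stand beside the other counts given here. Of 13 regulators of mitochondrial biogenesis 4 were higher and 1 lower, the latter being Ppargc1a (-0.49 ± 0.10, adjusted p = 5.91e-05), a coactivator of mitochondrial genes.

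Among nuclear-encoded partners of the respiratory chain, 22 of 33 tested genes were higher in males and 0 lower, with a median log2 difference of 0.10. Beside this and the next counts, 25.1% of all genes were higher and 25.2% lower. Examples were the complex IV subunit Cox7a2 (0.31 ± 0.04, adjusted p = 1.29e-07) and the complex I subunit Ndufs1 (0.16 ± 0.02, adjusted p = 9.97e-07). Of 12 genes of complex II and other mitochondrial proteins with no mitochondrially encoded partner, 5 were higher and 0 lower, led by Fh1 (0.34 ± 0.04, adjusted p = 3.26e-08), the fumarase of the citric acid cycle. Of 14 mitochondrial stress genes 6 were higher and 0 lower, and of 11 genes of mitophagy and dynamics 7 were higher and 1 lower.

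Between diets the same lists were counted, beside 12.7% of all genes called higher and 12% lower on HFD. On average over the 4 combinations, 0 of the 33 respiratory chain partners were higher and 3 lower, 4 of the 32 processing genes higher and 2 lower, and 5 of the 27 translation genes higher and 1 lower. In mtDNA transcription 1 of 11 was higher, Tfam (0.09 ± 0.03, adjusted p = 0.0379), and in mtDNA replication and maintenance 3 of 17 were higher and 5 lower. Lrpprc was higher by 0.10 ± 0.03 (adjusted p = 0.0196), and Polrmt (-0.01 ± 0.04) and Ppargc1a (0.08 ± 0.10) were not called. Of the biogenesis regulators 1 of 13 was higher and 0 lower, of the complex II list 2 of 12 higher and 2 lower, and of the mitophagy list 3 of 11 higher and 0 lower. The stress list had 5 of 14 genes higher and 4 lower, led by the hormone gene Fgf21 (2.27 ± 0.23, adjusted p = 1.41e-09). Between genotypes, 0 genes of any of the 9 lists were called in edgeR. On leaving out KO male chow replicate 3, the average sex counts of the lists moved by at most 1 gene in each direction, and on average between diets 1 processing gene, 2 respiratory chain partners and 3 stress genes were lower.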

How the data were processed

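Each library has 1 table, in which the authors deposited raw counts for every Ensembl gene ID. Per the submitters' processing notes, the tools were STAR 2.7.10b and featureCounts 2.0.6 with build mm39. How strand and reads with several places were handled, and with which annotation, is not given in the sources used here. Symbols matched 51880 of 57186 IDs, which held 99.7% of counts.

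All 40 libraries entered 1 edgeR 4.0.16 model (R 4.3.3) with a mean per group, TMM scaling and the quasi-likelihood F-test. The filterByExpr step left 15627 genes, all 24 members included. P-values were adjusted by Benjamini-Hochberg over all genes of a contrast, and a gene was called where the result was under 0.05. Log2 differences are shown ± standard error. CPM by group and library use the TMM-scaled library size. The mitochondrial share, the mean CPM over all libraries, the CPM per kb and Nnt use the unscaled total. The share was tested by exact permutation (SciPy 1.17.1) in 12 comparisons, and all exact tests are two-sided. Mitochondrial transcripts were aligned with BLAST+ 2.17.0, at a minimum identity of 80%, to nuclear transcripts of GENCODE M21, joined to the counts by gene ID. The test was checked on simulated counts with known changes.

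All 24 members could be named. Of the other lists, Tfam, Polrmt, Lrpprc, Ppargc1a and at most 4 called genes per list and comparison could be named, and nuclear copies with a mean of at least 1 CPM. The members and lists were chosen with earlier results of these data known. The other settings tried were RLE size factors, other low-count filters, DESeq2 1.42.0, fewer groups in the fit, a replicate block, library sizes without mitochondrial genes, other forms of the share and each library left out in turn. Fits without a library were read only for comparisons that include its group. Replicates of a group differed by a chi-square of at least 8.63 per degree of freedom over 80 pairs, so no library was counted as a repeat of another. The file names carry 1 sequencing lane code, so no batch could be separated. Numbers of counts limit the low members, such as mt-Co2.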

Additional observations from a re-analysis of the deposited data

Results flagged for a closer look

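Of 200 values of the members and of the mitochondrial share by group, 18 had a single library far from the other 4, and chance gives about 1 in 20. KO male chow replicate 3 accounted for 7, each the lowest of its group: the mitochondrial share at 4.02%, mt-Nd2 at 3857 CPM, mt-Co1 at 18791 CPM, mt-Nd4 at 2928 CPM, mt-Nd5 at 4160 CPM, mt-Nd6 at 920 CPM and mt-Cytb at 6349 CPM. In the same group, replicate 2 was the lowest for mt-Rnr2 at 726 CPM.

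In WT females on chow, replicate 3 was the lowest for mt-Nd5 at 6084 CPM and replicate 2 the highest for mt-Cytb at 12641 CPM. In WT females on HFD, replicate 2 had the lowest share at 5.94% and replicate 5 the highest mt-Atp6 at 3.51 CPM. In KO females on HFD, replicate 3 had the highest share at 7.24% and replicate 1 the highest mt-Atp6 at 3.35 CPM. In WT males on chow, replicate 1 was the highest for mt-Tm at 6.21 CPM and for mt-Te at 71.9 CPM, replicate 3 the lowest for mt-Tl1 at 2.58 CPM and replicate 4 the lowest for mt-Co2 at 1.69 CPM.

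The mitochondrial share differed without overlap in opposite directions between groups. The KO minus WT difference was -1.36 percentage points in males on chow (-0.615 without KO male chow replicate 3) and 0.401 in females on HFD. The HFD minus chow difference was -0.861 points in WT males and 0.554 in KO females. The 2 positive differences did not pass on the log2 scale of the TMM-scaled CPM sum (adjusted exact permutation p = 0.317 and 0.262). The difference between these effects was not tested for the share.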

How the results depend on the processing

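RLE size factors, a filter of 1 CPM in at least 5 libraries, library sizes without mitochondrial genes and a replicate block kept all 18 counts of called members within 1.5 times. With the replicate block, 12 members were called between the sexes in WT mice on chow. The replicate numbers were not taken to pair the libraries. Of 140 pairs with the same number 36 correlated above 0.1, with a median of 0.000438. Of 560 pairs with other numbers 137 did, with a median of -0.0063. This cannot exclude a pairing. Without a low-count filter 2 members were called between diets in WT males. In KO females the count was 4 with DESeq2 and 5 with only the compared groups in the fit, which in KO males gave 0 and between the sexes of KO mice on HFD gave 1. As log2 of the TMM-scaled CPM sum, the share differences KO minus WT in females on HFD (0.0439) and HFD minus chow in KO females (0.0464) no longer passed, and the sex difference in KO mice on HFD did (0.17). The cause was not tested. 0 called members reversed under any of these or on leaving out a library.

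With each library left out in turn, the count of called members ran from 11 to 13 between the sexes in WT mice on chow, 4 to 15 in KO mice on chow, 2 to 5 in WT mice on HFD, 0 to 1 in KO mice on HFD and 16 to 18 on average. Between diets it ran from 0 to 1 in WT females, 1 to 2 in KO females, 1 to 6 in WT males, 0 to 1 in KO males and 5 to 8 on average. It was 0 in each genotype comparison and interaction. The KO minus WT share in females on chow ran from -0.505 to -0.243 points and passed without WT female chow replicate 3. The HFD minus chow share in KO males ran from -0.357 to 0.619 and the sex difference of KO mice on chow from 0.268 to 1.24 points.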
